A study of Mus musculus with 15 samples.

Results

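GABA is a small signalling amino acid made from glutamate by glutamate decarboxylase, encoded by *Gad1*. It opens chloride channels built from several GABA-A receptor subunits, among them the alpha and beta subunits encoded by *Gabra3* and *Gabrb2*. In mitochondria, GABA is broken down by GABA aminotransferase (*Abat*) to succinic semialdehyde, which succinic semialdehyde dehydrogenase (*Aldh5a1*) oxidises to succinate. The pathway is best known in brain, and the kidney also contains GABA, its synthesising enzyme and GABA receptors.

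These 5 genes were followed in kidney RNA of male mice labelled C57BL/6 (C57BL/6J in the methods of the study) at 3, 12 and 24 months of age, with 5 mice and 1 library per mouse at each age. The labels give no treatment and no altered gene at any age. The value of a gene was the sum of FPKM, a fragment count divided by transcript length and library size, over its listed transcripts, those matching the Ensembl annotation and those assembled from the reads. Of the 5 genes, *Gabra3*, *Gad1*, *Abat* and *Aldh5a1* had values, among 33058 genes of the series, and *Gabrb2* was not analysed here. They comprised 22 of 129029 linear transcripts and 4 of 11929 circular RNAs, of which 2 came from *Gabra3* and 2 from *Abat*. The genes were chosen by function and with their measured FPKM known, in particular that 1 *Gabra3* transcript was nearly absent at 3 months, and all comparisons share those mice, so the values of these genes are a description without a test. Differences between ages in linear RNA are on the log2(FPKM + 1) scale, which understates those of genes with low FPKM. They carry the standard error (SE) of the fit over all genes or all transcripts. Those of circular RNAs come from a fit on estimated counts, and their SE was derived from its test statistic.

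Aligned bases per library were 5.03 to 8.03 Gb, with medians of 6.04 Gb at 3 months, 7.17 Gb at 12 months and 7.00 Gb at 24 months. Summed FPKM of 7 proximal tubule markers was between 1684 and 2196 in each mouse, and that of 5 neuron markers was between 0.175 and 0.884. The 3-month mouse with replicate number 8 had the lowest *Gabra3*, *Gad1* and *Abat* of its age, so values without it stand beside those results. Its library had the fewest aligned bases of all, 5.03 Gb, and the fewest transcripts above 0, 83226. In bulk kidney, fewer cells of a type and less RNA per cell cannot be told apart.

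*Gabra3* lies on the minus strand of the X chromosome at chrX:72432681-72656848 (GRCm38). The 4 listed transcripts differ in where they begin and end. ENSMUST00000055966 spans chrX:72432681-72656186 with 10 exons and 3662 bases, and its start codon is in exon 2. MSTRG.39541.2, assembled by the authors from the reads and sharing at least 1 splice junction with the annotation, spans chrX:72432832-72592978 with 10 exons and 4183 bases. Its start lies 63.2 kb inside the start of ENSMUST00000055966, in the first intron, and 40.2 kb before the annotated start codon. The exon positions of the assembled transcript were not used here. If its other exons were exons 2 to 10 of ENSMUST00000055966, its first exon would measure 852 bases.

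**Figure D1:**
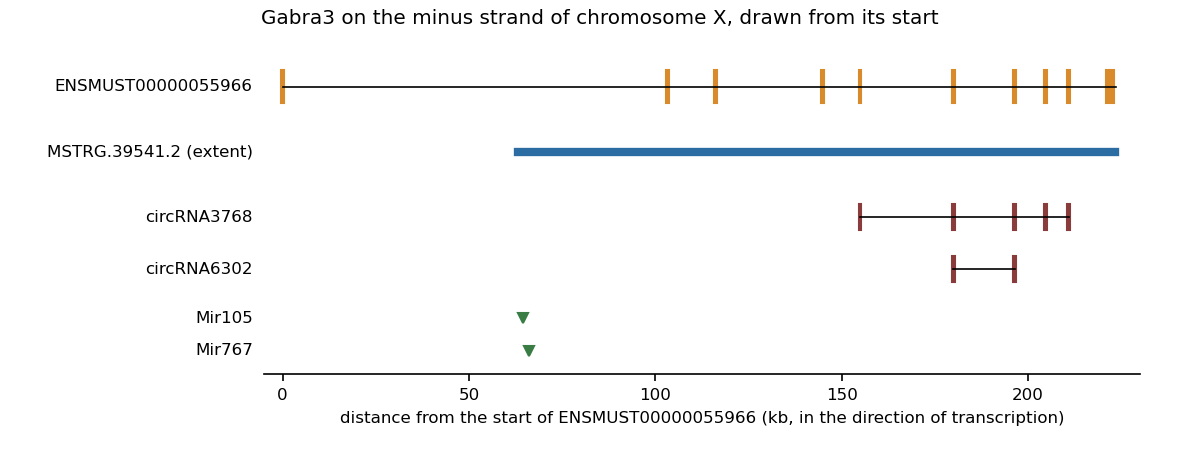
Map of *Gabra3*, with distance from the start of ENSMUST00000055966 in kb on the x axis, running in the direction of transcription. Boxes are exons (the narrowest drawn at a minimum width), the thick bar is the extent of MSTRG.39541.2, whose exons are not drawn, and triangles are 2 microRNA genes. The assembled transcript begins 63.2 kb from the annotated start, just before both microRNA genes, and the 2 circular RNAs lie in its downstream part.

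The first 60 coding bases of ENSMUST00000055966 (chrX:72552757-72552816, minus strand) lie downstream of both starts and are shown with the start codon in capitals. Another annotated transcript, ENSMUST00000114554 (chrX:72434575-72656848, 10 exons, 1790 bases), has its coding start in another exon, upstream of both. The 2 starts are printed to show that the annotated transcripts begin translation at different sequences.
ENSMUST00000055966 coding start: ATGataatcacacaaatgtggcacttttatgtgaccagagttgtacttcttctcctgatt
ENSMUST00000114554 coding start: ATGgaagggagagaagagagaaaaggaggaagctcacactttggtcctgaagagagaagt

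The assembled start was 1399 bases upstream of the *Mir105* hairpin and 2884 bases upstream of the *Mir767* hairpin, both on the same strand within the intron. Small RNAs were not measured. The distances come from coordinates alone. The mature sequences (RefSeq, GRCm38.p6) are shown to identify the 2 microRNAs, with the seed, bases 2 to 8, in capitals.
mmu-miR-105: cCAAGUGCucagaugcuuguggu
mmu-miR-767: uGCACCAUgguugucugagca

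The gene sum of *Gabra3* was higher at 12 and 24 months than at 3 months, without overlap. It was 2.11, 2.40, 1.65, 0.856 and 2.15 FPKM in the 3-month mice. It was 4.79, 3.36, 3.55, 3.07 and 2.87 FPKM in the 12-month mice. It was 4.38, 2.81, 3.61, 3.99 and 3.23 FPKM in the 24-month mice. Every 3-month value lay below every value of both older ages, and the 12- and 24-month mice overlapped. The means were 1.83 ± 0.609, 3.53 ± 0.752 and 3.60 ± 0.619 FPKM (SD, n = 5) at 3, 12 and 24 months. On the log2 scale the difference was 0.72 ± 0.18 (SE) for 24 minus 3 months, 0.69 ± 0.18 for 12 minus 3 months and 0.03 ± 0.13 for 24 minus 12 months. Without 3-month replicate 8 the first difference was 0.58 and the second 0.55.

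*Gabra3* was the only 1 of the 4 genes with values whose ages did not overlap, at 24 against 3 months and also at 12 against 3 months. Among all genes, 4.73% of 31755 did not overlap at 24 against 3 months and 4.11% of 31637 at 12 against 3 months. At 24 against 12 months 0 of the 4 genes did not overlap, against 1.07% of 32282 genes. Nothing is read from these shares, since the gene was chosen for this contrast.

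**Figure D2:**
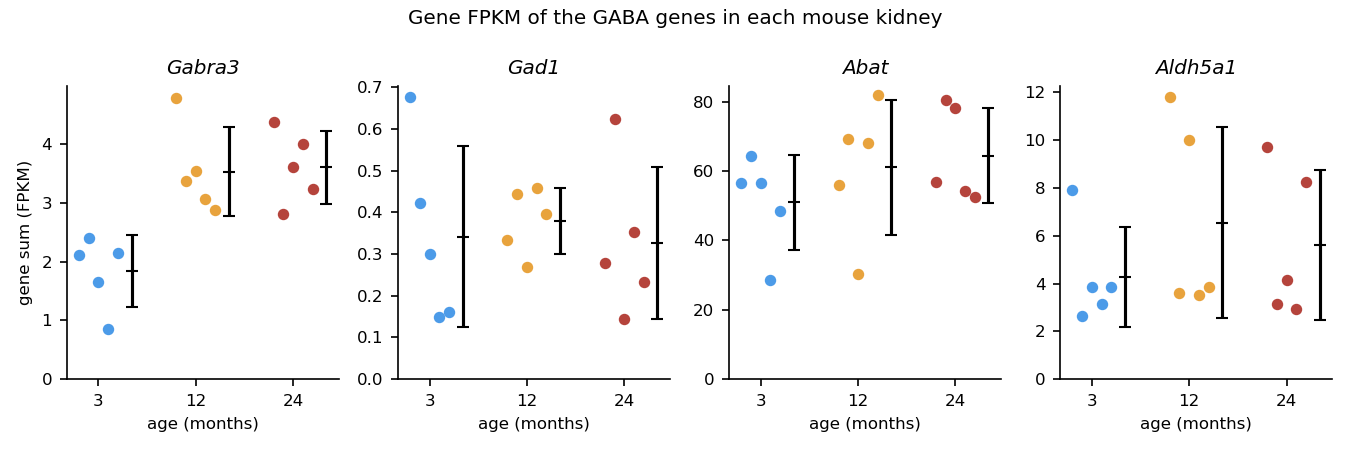
Gene FPKM (y axis, from 0) of *Gabra3*, *Gad1*, *Abat* and *Aldh5a1* in each mouse by age in months (x axis); each point is 1 mouse and the bar beside it is the mean with SD of 5 mice. The 3-month points of *Gabra3*, at 0.856 to 2.40 FPKM, lie below all older ones, while the ages of the other 3 genes overlap.

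The 2 main *Gabra3* transcripts divided the mice more sharply than the gene sum did. ENSMUST00000055966 was listed at 0 in 4 of the 3-month mice and at 0.0137 FPKM in replicate 9. In the 12-month mice it was 4.71, 0, 0.769, 0.00706 and 0.00575 FPKM. In the 24-month mice it was 4.28, 2.80, 3.57, 1.40 and 3.05 FPKM. The annotated transcript was thus near 0 at 3 months, above 1 FPKM in 1 of the 12-month mice, replicate 17, and above 1 FPKM in all 24-month mice. It was the transcript named by the rule, so this is a description.

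The assembled transcript MSTRG.39541.2 showed the opposite division. It was 2.11, 2.40, 1.65, 0.856 and 2.07 FPKM at 3 months. At 12 months it was 0.0766, 3.14, 2.74, 2.88 and 2.72 FPKM. At 24 months it was 0.0334, 0.00595, 0.0322, 2.60 and 0.0189 FPKM. It was low in 12-month replicate 17 and in 4 of the 24-month mice, where the annotated transcript was high, and 24-month replicate 34 held both.

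As a share of the *Gabra3* sum, the leading transcript took between 65.0% and 100% in each mouse. MSTRG.39541.2 led in all 5 mice at 3 months, in 4 at 12 months and in 1 at 24 months, and ENSMUST00000055966 led in the remaining 5 mice. On the log2 scale ENSMUST00000055966 differed by 1.96 ± 0.20 (SE) for 24 minus 3 months and MSTRG.39541.2 by -1.07 ± 0.37. These 2 values come from 1 division of reads between overlapping transcripts and are not independent. The sum over annotated transcripts alone differed by 1.95 for 24 minus 3 months and by 1.15 for 24 minus 12 months, so the size of the *Gabra3* difference rests on whether the assembled transcript is counted.

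**Figure D3:**
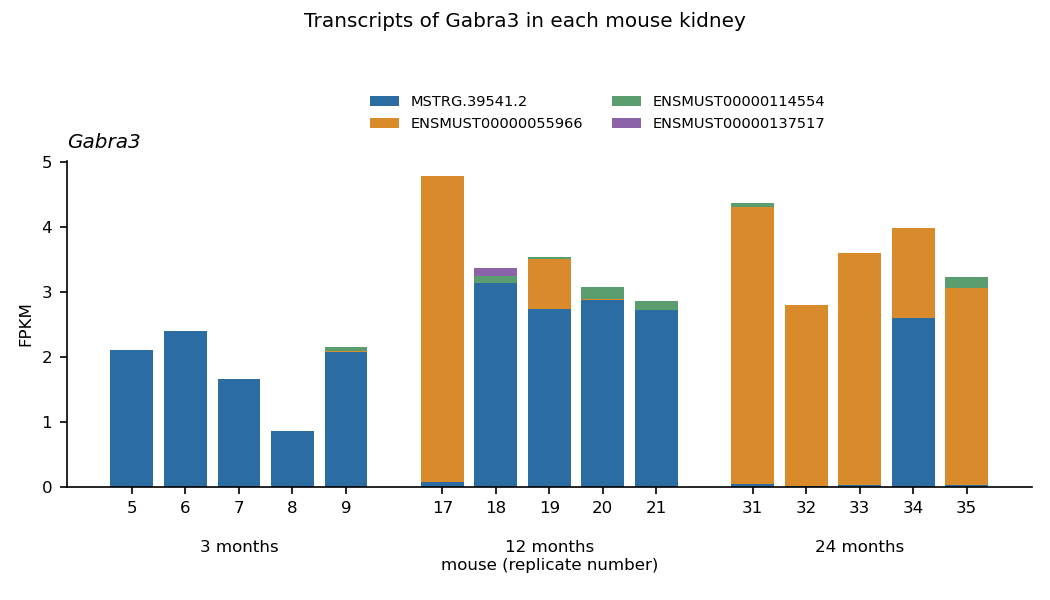
FPKM (y axis, from 0) of the 4 *Gabra3* transcripts, stacked, in each of 15 mice (x axis, by replicate number within age). MSTRG.39541.2 makes up nearly all of the sum at 3 months and ENSMUST00000055966 in 4 of 5 mice at 24 months, and 12-month replicate 17 resembles the latter.

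The other *Gabra3* transcripts were low. ENSMUST00000114554 reached at most 0.183 FPKM and was listed at 0 in 4, 1 and 3 mice at 3, 12 and 24 months. ENSMUST00000137517 (chrX:72501194-72656246, 4 exons) was above 0 in 12-month replicate 18 alone, at 0.117 FPKM. A change of leading transcript between mice was common in the series. Of 11154 genes with a mean of at least 1 FPKM and at least 2 transcripts, 68.2% had different leading transcripts among the 15 mice. A transcript under 5% of its gene in 1 mouse and over 90% in another was found in 1008 of them (9.04%).

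Levels of markers of other cell types are given beside these values. The 5 neuron markers summed to 0.175 to 0.352 FPKM at 3 months, 0.444 to 0.884 at 12 months and 0.279 to 0.600 at 24 months. *Snap25* was listed at 0 in 11 of the 15 mice, and 3 of the 5 neuron markers had a mean under 0.1 FPKM. The 5 markers of stroma and smooth muscle summed to 32.1 to 43.4, 40.3 to 54.3 and 40.1 to 55.2 FPKM at 3, 12 and 24 months. The neuron sums did not overlap at 12 against 3 months, and both the neuron and the stroma sums overlapped at 24 against 3 months. The 3 markers of B and plasma cells summed to 1.13 to 3.25 FPKM at 3 months, 2.60 to 18.5 at 12 months and 3.87 to 11.8 at 24 months, without overlap at 24 against 3 months. Most of this sum was *Jchain*, with a mean of 4.76 FPKM over the 15 mice. *Cd79a* did not overlap, at 0.0371 to 0.215 FPKM at 3 months and 0.222 to 0.770 at 24 months. *Mzb1* overlapped, at 0 to 0.266 FPKM at 3 months and 0.0537 to 0.180 at 24 months. Of the adrenal markers, *Star* was at most 1.75 FPKM at 3 months, 1.71 to 2.33 at 12 months and 1.87 to 3.24 at 24 months. *Star* did not overlap at 24 against 3 months, while *Cyp11b1* and *Dbh* were listed at 0 in 14 mice each. The part of these cells in the *Gabra3* values was not tested.

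The genes whose log2(FPKM + 1) was most like that of *Gabra3* over the 15 mice, among 13445 genes with a mean of at least 1 FPKM, included *Micall2* and *Dcn*, which encodes the matrix proteoglycan decorin. Their Pearson correlations were 0.915 and 0.902, which describe libraries that also share depth and age. Replicate 8 of the 3-month mice was the lowest library for both, at 0.574 and 4.88 FPKM.

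Circular RNAs are closed loops made when the end of a downstream exon is joined to the start of an upstream exon. *Gabra3* had 2. circRNA3768 (chrX:72445175-72501299) corresponded to exons 5 to 9 of ENSMUST00000055966, 813 bases, and circRNA6302 (chrX:72459589-72476308) to exons 6 to 7, 227 bases, nested inside the first. All these exons are coding, and they lie downstream of both linear starts. The back-splice is what distinguishes the circles from the linear transcripts and from each other. It is shown as 30 bases of the last exon in lower case joined to 30 bases of the first exon in capitals, from the exon sequence of the reference transcript.
circRNA3768 back-splice: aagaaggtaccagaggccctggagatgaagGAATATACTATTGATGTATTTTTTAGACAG
circRNA6302 back-splice: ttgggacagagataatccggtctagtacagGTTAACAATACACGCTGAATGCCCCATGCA

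The whole exon sequence of circRNA6302, which is also contained in circRNA3768 and in the linear transcript, shows how much sequence the nested circle shares with them.
circRNA6302 exons: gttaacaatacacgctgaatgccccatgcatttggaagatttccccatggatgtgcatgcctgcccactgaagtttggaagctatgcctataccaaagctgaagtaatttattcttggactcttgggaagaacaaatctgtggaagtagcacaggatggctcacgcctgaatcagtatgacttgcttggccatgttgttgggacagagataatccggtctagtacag

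Both *Gabra3* circles were lowest at 3 months. The deposited FPKM of circRNA3768 was 5.84, 8.16, 6.31, 6.20 and 7.47 at 3 months. It was 13.2, 11.1, 12.1, 10.5 and 8.45 at 12 months. It was 12.4, 7.82, 9.97, 12.2 and 10.2 at 24 months. The 3- and 12-month mice did not overlap, whereas 24-month replicate 32 lay below 3-month replicate 6. The estimated counts behind these values were between 166.7 and 469.3 per mouse.

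The FPKM of circRNA6302 was 5.97, 9.35, 7.41, 7.70 and 7.72 at 3 months. It was 11.6, 11.3, 12.5, 11.7 and 11.3 at 12 months. It was 11.2, 8.74, 9.54, 11.4 and 11.1 at 24 months. The 12-month mice again lay above all 3-month mice, and 24-month replicate 32 overlapped the 3-month range. In the edgeR fit on estimated counts, circRNA3768 differed by 0.68 ± 0.14 (SE, log2) for 24 minus 3 months and by 0.76 ± 0.14 for 12 minus 3 months. circRNA6302 differed by 0.51 ± 0.13 and 0.68 ± 0.12. Without 3-month replicate 8 the 24 minus 3 month values were 0.61 and 0.47.

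Of the 4 circles, 2 did not overlap at 12 against 3 months, where 7.47% of 11923 circular RNAs did not, and 0 did not overlap at 24 against 3 months, where the share was 9.55% of 11924. At 24 against 12 months it was 0 of 4, against 3.36% of 11925. The FPKM of the nested circles was alike within a mouse, with a ratio of circRNA6302 to circRNA3768 between 0.875 and 1.33. Both exceeded the linear *Gabra3* sum in every mouse, circRNA3768 by 2.76- to 7.25-fold with a median of 3.15. The highest ratio was that of 3-month replicate 8, the mouse with the lowest linear sum. How the estimated counts assign reads that a circle shares with linear RNA or with another circle is not given in the sources used here, so circular and linear values of a gene cannot be taken as separate measurements.

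*Gad1* was the lowest of the 4 genes, and its ages overlapped. It lies on the plus strand of chromosome 2, and ENSMUST00000094934 (chr2:70562042-70602014) has 17 exons. The gene sum was 0.675, 0.423, 0.300, 0.149 and 0.161 FPKM at 3 months. It was 0.334, 0.443, 0.268, 0.458 and 0.395 FPKM at 12 months. It was 0.278, 0.624, 0.143, 0.352 and 0.232 FPKM at 24 months. The highest mouse was a 3-month and the lowest a 24-month mouse, and the difference for 24 minus 3 months was -0.01 ± 0.12 (SE, log2). Without 3-month replicate 8 this difference was -0.07.

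The depth behind *Gad1* was small. Between 2.33 and 8.55 kb of aligned sequence per mouse lay on the gene, with a median of 4.92 kb, against medians of 80.7 kb on *Gabra3* and 2102 kb on *Abat*. ENSMUST00000094934 had a mean of 0.157 FPKM over the 15 mice and was above 0 in each. ENSMUST00000130618 (4 exons, 398 bases) and ENSMUST00000130998 (7 exons, 1705 bases) had means of 0.0779 and 0.0622 FPKM. The genes most like *Gad1* over the mice were *Mrpl35*, *Tma16* and *Abcc2*, with correlations of 0.823, 0.801 and 0.793.

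*Abat* was the most abundant of the 4 genes. It lies on the plus strand of chromosome 16, where ENSMUST00000065987 spans chr16:8513429-8621568 with 16 exons. The gene sum was 56.7, 64.3, 56.7, 28.5 and 48.6 FPKM at 3 months. It was 56.0, 69.2, 30.4, 68.0 and 81.9 FPKM at 12 months. It was 56.7, 80.4, 78.1, 54.2 and 52.6 FPKM at 24 months. The ages overlapped, and the lowest values were those of 3-month replicate 8 and 12-month replicate 19.

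The *Abat* difference was 0.36 ± 0.22 (SE, log2) for 24 minus 3 months, 0.24 ± 0.29 for 12 minus 3 months and 0.12 ± 0.26 for 24 minus 12 months. Without 3-month replicate 8 it was 0.17 for 24 minus 3 months and 0.04 for 12 minus 3 months, so that library carried much of both. Without 12-month replicate 19 it was 0.46 for 12 minus 3 months and -0.10 for 24 minus 12 months. Leaving out any 1 mouse gave 0.17 to 0.45 for 24 minus 3, 0.04 to 0.46 for 12 minus 3 and -0.10 to 0.25 for 24 minus 12 months. The genes most like *Abat* over the mice were *P4htm*, *Gm4631* and *Fhl3*, with correlations of 0.894, 0.822 and 0.816. *P4htm*, a prolyl hydroxylase, was 0.519 FPKM in 3-month replicate 8 and 0.291 FPKM in 12-month replicate 19, its lowest libraries as well.

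Beneath a gene sum that varied by 26.9% (coefficient of variation over 15 mice), *Abat* had 4 different leading transcripts. The assembled MSTRG.13550.6 (chr16:8533828-8621479, 16 exons) led in 10 mice and ranged from 0.815 to 44.5 FPKM. ENSMUST00000065987 led in 3 mice and reached 58.2 FPKM in 12-month replicate 18 and 56.1 FPKM in 24-month replicate 33. MSTRG.13550.7 (chr16:8568501-8621492, 16 exons) led in 12-month replicate 21 alone, at 69.3 FPKM, and ENSMUST00000115839 (chr16:8513485-8619570, 15 exons) in 24-month replicate 32 alone, at 46.6 FPKM. Both assembled leaders begin at sites of their own, whereas the starts of both annotated leaders, 8513429 and 8513485, lie in the same first exon. Each age but the youngest had mice with 3 different leaders.

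Among the short *Abat* transcripts, 1 singled out after its values were seen went the other way from *Gabra3*. ENSMUST00000138987 (chr16:8572902-8605633, 10 exons, 696 bases) was 3.50, 2.44, 1.92, 1.67 and 2.76 FPKM at 3 months. It was 1.28, 0, 0.273, 0 and 0 FPKM at 12 months. It was 0, 0, 0, 0.449 and 0.777 FPKM at 24 months. All 3-month mice lay above all older mice, and the difference was -1.49 ± 0.22 (SE, log2) for 24 minus 3 months. It made up at most 6.18% of the *Abat* sum.

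With ENSMUST00000055966 of *Gabra3*, this was 1 of 2 among 20 transcripts of the 4 genes above 0 whose 3- and 24-month values did not overlap, against 2.13% of 124719 transcripts of the series. At 12 against 3 months it was 1 of 22, against 1.85% of 124761. At 24 against 12 months it was 0 of 21, against 0.782% of 125282.

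**Figure D4:**
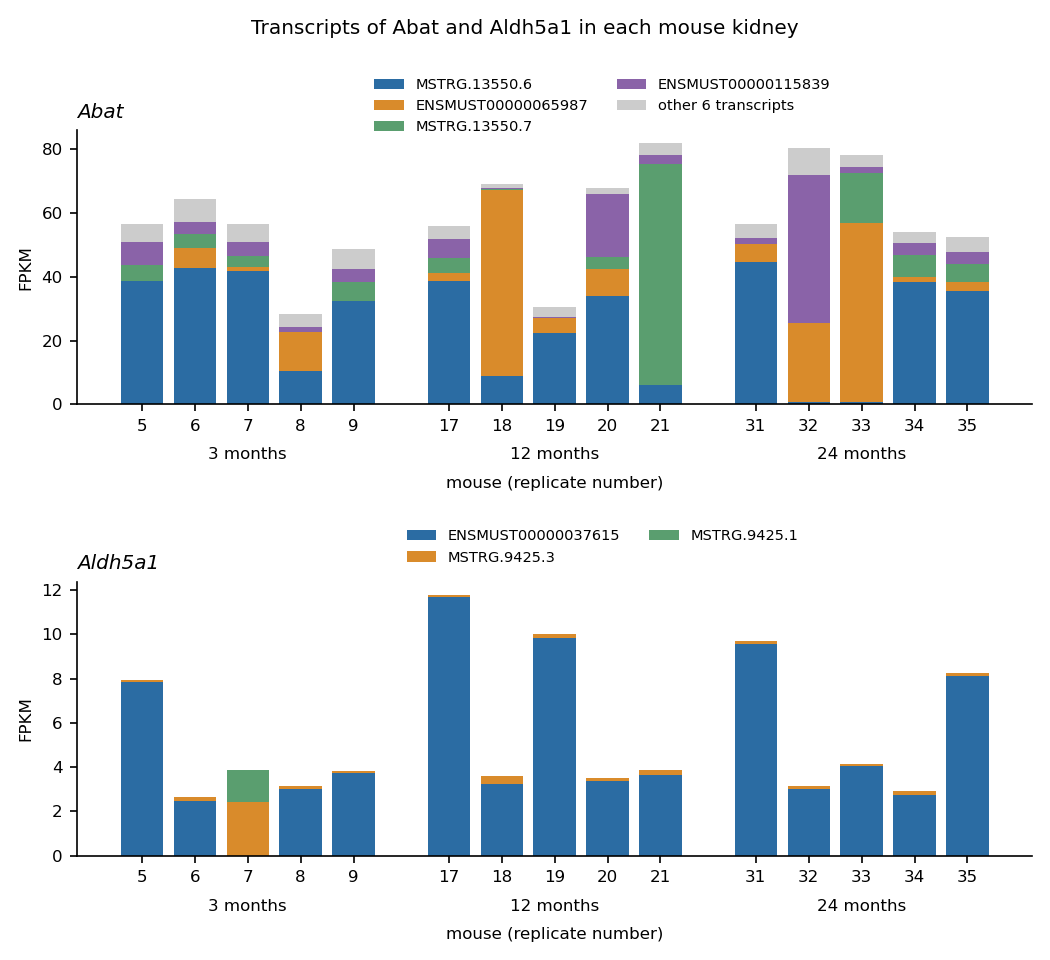
FPKM (y axes, from 0) of the transcripts of *Abat* (the 4 with the highest mean, the other 6 summed in grey) and *Aldh5a1* (all 3), stacked, in each of 15 mice (x axis, by replicate number within age). The leading *Abat* transcript differs between mice of the same age, and *Aldh5a1* is above 7 FPKM in mice 5, 17, 19, 31 and 35.

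The 2 *Abat* circles showed smaller differences than those of *Gabra3*. circRNA8252 (chr16:8572836-8588935) corresponded to exons 2 to 6 of ENSMUST00000065987, 411 bases, beginning in the exon that holds the start codon. circRNA4038 (chr16:8605512-8608993) corresponded to exons 11 to 12, 287 coding bases, and its back-splice is shown for comparison with those of *Gabra3*.
circRNA4038 back-splice: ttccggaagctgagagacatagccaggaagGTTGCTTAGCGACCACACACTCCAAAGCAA

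The FPKM of circRNA8252 was 64.0, 92.7, 84.2, 95.9 and 70.4 at 3 months, 69.6 to 91.3 with a median of 81.9 at 12 months and 57.9 to 81.2 with a median of 65.3 at 24 months. circRNA4038 was 27.1 to 37.5 at 3 months, 27.9 to 40.1 at 12 months and 27.7 to 42.3 at 24 months. All ages overlapped for both. The differences for 24 minus 3 months were -0.18 ± 0.12 (SE, log2) for circRNA8252 and 0.22 ± 0.11 for circRNA4038. In 3-month replicate 8, which had the lowest linear *Abat*, circRNA8252 was the highest of all 15 mice, at 3.37 times the linear sum, whereas the median ratio over the mice was 1.15.

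*Aldh5a1* separated individual mice rather than ages. It lies on the minus strand of chromosome 13, and ENSMUST00000037615 (chr13:24907579-24937661, 10 exons, 5647 bases) made up a median of 97.0% of the sum. The gene sum was 7.93, 2.63, 3.87, 3.16 and 3.83 FPKM at 3 months. It was 11.8, 3.62, 10.0, 3.50 and 3.87 FPKM at 12 months. It was 9.72, 3.14, 4.13, 2.91 and 8.24 FPKM at 24 months. Values above 7 FPKM were seen in 1 mouse at 3 months and in 2 at each older age, with no mouse between 4.13 and 7.93 FPKM.

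The *Aldh5a1* difference was 0.27 ± 0.34 (SE, log2) for 24 minus 3 months and 0.43 ± 0.37 for 12 minus 3 months, and the ages overlapped. Single mice decided their size. For 24 minus 3 months it was 0.07 without 24-month replicate 31, 0.12 without 24-month replicate 35, 0.16 without 3-month replicate 6 and 0.41 to 0.48 without 3-month replicate 5 or 24-month replicate 32 or 34. For 12 minus 3 months it was 0.20 and 0.26 without 12-month replicates 17 and 19, and 0.64 at most, without 3-month replicate 5. In 3-month replicate 7 ENSMUST00000037615 was listed at 0, and the reads were placed on MSTRG.9425.3 (chr13:24907601-24930246, 10 exons) at 2.41 FPKM and MSTRG.9425.1 (chr13:24907224-24937935, 11 exons) at 1.46 FPKM. MSTRG.9425.1 was listed at 0 in the other 14 mice, and MSTRG.9425.3 was at most 0.393 FPKM in them. The genes most like *Aldh5a1* over the mice were *Snx7*, *Nucb2* and *Eif5b*, with correlations of 0.837, 0.823 and 0.810. *Snx7*, a sorting nexin, was 32.2 FPKM in 12-month replicate 19 and 15.8 FPKM in 3-month replicate 6.

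In FPKM, which is scaled by length, the order of the gene sums was *Abat*, *Aldh5a1*, *Gabra3* and *Gad1*. *Abat* exceeded *Aldh5a1*, and *Gabra3* exceeded *Gad1*, in all 15 mice. *Aldh5a1* exceeded *Gabra3* in 14 of 15 mice, and both overlapped in range. The RNA of *Abat* and *Aldh5a1* was thus above that of *Gad1* in every library. Enzyme amounts were not measured, and genes of other routes of GABA synthesis, given below, are not part of this order.

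The other genes of GABA signalling and metabolism were taken from a list of 57 by role, of which 53 had values and the other 4 were not analysed here. These were tested with limma, adjusted over all genes. At 24 against 3 months 0 of 52 tested passed an adjusted p of 0.05 (limma, Benjamini-Hochberg), against 1.22% of all 31755 genes. At an unadjusted p under 0.05 it was 7 higher and 5 lower, against 11.4% of all genes higher and 3.47% lower. The median log2 difference of the list was 0.00, and that of all genes 0.02. At 12 against 3 months 0 of 52 passed (limma), against 0.250% of all genes, and at an unadjusted p under 0.05 it was 7 higher and 7 lower, against 11.4% and 2.90%. At 24 against 12 months 0 of 52 passed (limma), against 0.00310%, and at an unadjusted p under 0.05 it was 1 higher and 4 lower, against 3.07% and 3.36%. With a further limit of an absolute log2 difference above 1, 0 of 52 remained in each comparison, against 0.523%, 0.499% and 0.170% of all genes.

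Among 14 other GABA-A receptor subunits with values, *Gabre* had a mean of 1.01 FPKM, and *Gabra4*, the subunit with the smallest p, was 0.0970 FPKM at 3 months and 0.283 FPKM at 24 months on average (limma adjusted p = 0.108). *Gabra2*, a common brain subunit, was at most 0.0126 FPKM in any mouse. Of the 14 subunits, 10 had a positive and 4 a negative difference, where 20008 of all 31755 genes had a positive one.

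Of the GABA-B receptor subunits, *Gabbr1* was 6.09, 8.46 and 8.32 FPKM on average at 3, 12 and 24 months, with a log2 difference of 0.40 ± 0.10 for 24 minus 3 months (limma adjusted p = 0.0977). *Gabbr2*, its partner in the functional receptor, had a mean of 0.0264 FPKM over the 15 mice. Among genes of other routes of GABA synthesis, *Aldh9a1*, an aldehyde dehydrogenase of the putrescine route, had a mean of 174.8 FPKM, and *Odc1*, which makes putrescine, 142.3 FPKM. The second glutamate decarboxylase gene, *Gad2*, had a mean of 0.0159 FPKM. None of the 3 passed the test at 24 against 3 months, with limma adjusted p of 0.474, 0.781 and 0.422.

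The plasma membrane GABA transporter *Slc6a13* was 28.7, 28.6 and 26.6 FPKM at 3, 12 and 24 months, and the betaine and GABA transporter *Slc6a12* had a mean of 1.21 FPKM over a range of 0.171 to 3.22. Of 7 genes of glutamate supply, 6 had a negative difference at 24 against 3 months, with a median of -0.29 on the log2 scale and none past the test. *Glul*, glutamine synthetase, was 164.7 FPKM at 3 months and 135.3 FPKM at 24 months, and *Glud1*, glutamate dehydrogenase, was 136.3 and 110.5 FPKM (limma adjusted p = 0.486 and 0.295). *Adhfe1* and *Akr7a5*, which interconvert succinic semialdehyde and its reduced product, and *D2hgdh*, which acts on the hydroxyglutarate that *Adhfe1* forms, had log2 differences of -0.06, 0.10 and -0.18 (limma adjusted p = 0.830, 0.763 and 0.638).

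*Ubqln1*, a ubiquitin-like protein that binds GABA-A receptor subunits, had the smallest p of the list. Its mean was 38.1 ± 7.68, 26.3 ± 1.67 and 23.4 ± 2.20 FPKM (SD, n = 5) at 3, 12 and 24 months. The lowest 3-month mouse, at 29.0 FPKM, lay above the highest older mouse. The log2 difference was -0.66 ± 0.13 for 24 minus 3 months and its limma adjusted p was 0.0513. It was 0.0463 without 3-month replicate 8 and 0.0131 with all 15 mice in one fit, and 0.125 in the comparison of 12 with 3 months. *Shisa7*, a receptor auxiliary protein named after its values were seen, was 1.19 FPKM at 3 months and 2.14 FPKM at 24 months without overlap (limma adjusted p = 0.0712). It passed at 0.0458 with all 15 mice in one fit.

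*Gabarap*, which encodes the GABA-A receptor-associated protein, and its relative *Gabarapl1* were 67.7 and 112.3 FPKM on average, and *Gabarap* varied from 5.73 to 131.9 FPKM between mice. *Dbi*, which encodes the diazepam binding inhibitor, had a mean of 142.4 FPKM, and *Tspo*, the mitochondrial translocator protein, 14.4 FPKM. Neither passed the test, with limma adjusted p of 0.883 and 0.498.

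**Figure D5:**
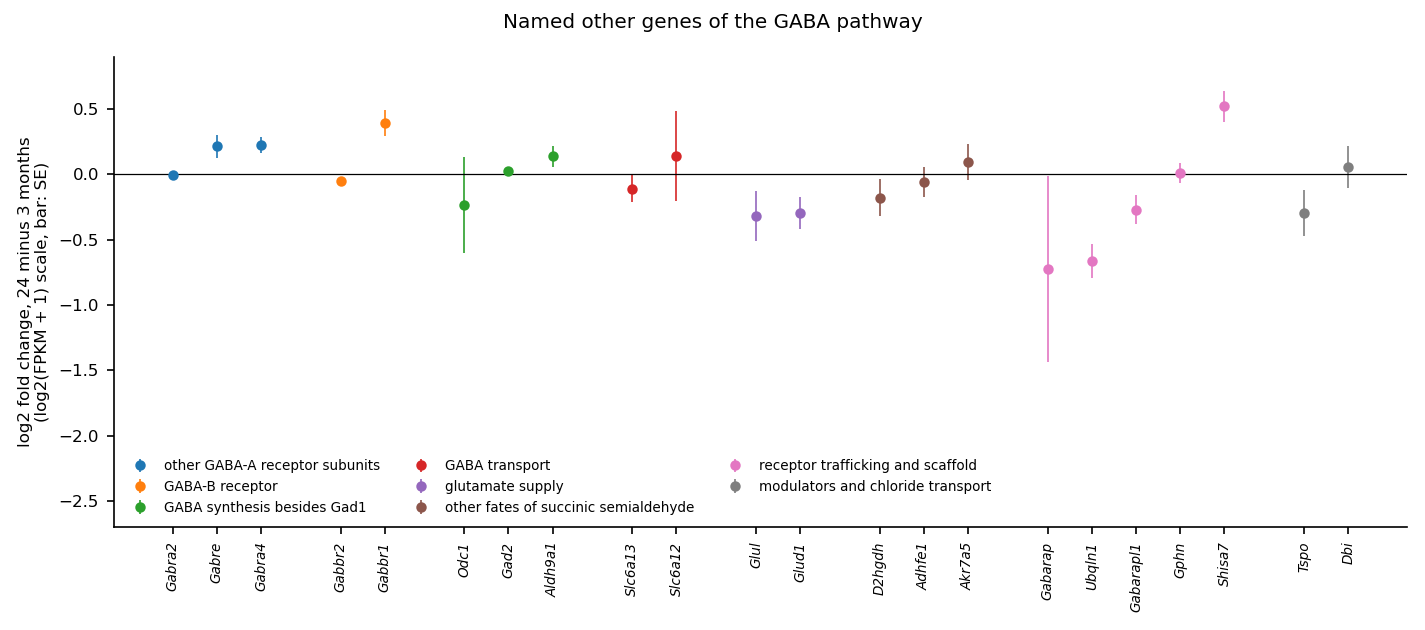
Log2 difference for 24 minus 3 months on the log2(FPKM + 1) scale (y axis) with its SE for 22 of the other GABA genes named in the text (x axis), coloured by role. *Trak1*, named for its circle alone, is not drawn. *Ubqln1* is at -0.66 and *Shisa7* at 0.52, and none of the genes shown passed an adjusted p of 0.05 (limma).

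Circular RNAs of the other GABA genes numbered 50 from 16 hosts. At 24 against 3 months 3 rose and 11 fell (edgeR quasi-likelihood test, adjusted p under 0.05), where 6.66% of all 11924 circular RNAs rose and 6.61% fell. At 12 against 3 months 0 rose and 1 fell, against 3.44% and 3.20% of 11923. At 24 against 12 months 0 rose and 1 fell, against 0.310% and 0.428% of 11925.

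Of the 11 circles that fell, 7 came from *Gphn* and 3 from *Ubqln1*. *Gphn* encodes gephyrin, the scaffold of inhibitory synapses, and 7 of its 19 circles fell. These circles lie in 1 gene and can share exons, so they are not separate observations. Among them circRNA6353 fell by 0.46 ± 0.10 on the log2 scale (edgeR adjusted p = 0.00929), while linear *Gphn* was 14.0 FPKM at 3 months and 14.2 FPKM at 24 months on average. All 3 *Ubqln1* circles fell, by 0.42 to 0.48 on the log2 scale. circRNA9791 had the smallest edgeR adjusted p, 0.00315, and fell at 12 months too (0.0417), a call that held in 2 of 12 alternatives.

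Circles that rose included circRNA9915 of *Gabbr1*, by 0.38 ± 0.11 on the log2 scale, and circRNA2276 of *Trak1*, which encodes a motor adaptor, by 0.35 ± 0.10. Their edgeR adjusted p were 0.0371 and 0.0372, and they passed in 3 and 6 of 12 alternatives.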

How the data were processed

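Kidney RNA of 15 mice, 5 at each age, was sequenced with 1 library per mouse. Ages were taken from the age label, since every title carries the prefix 3M. The labels describe ribosomal RNA removal and a stranded kit, whereas the methods of the study describe oligo(dT) selection. The authors aligned to GRCm38 (Ensembl release 88) using HISAT2 and Bowtie2, assembled the reads of each sample with StringTie and merged the transcripts with Perl scripts; TopHat2 is also named in the submitters' processing notes. The deposited FPKM and the deposited mean coverage per transcript are the authors' estimates, and coverage divided by FPKM gave the aligned bases per library. How reads are divided between overlapping transcripts sets each transcript's FPKM. For circular RNAs, estimated counts and FPKM were deposited by the authors, and their caller is not given in the sources used here. These counts totalled 6974494 to 9889971 in a mouse. Of those above 0, 83.7% to 94.8% carried decimals, so all were rounded for the count test.

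Gene values were sums of FPKM over transcripts of class code =, c, j or o. They were fitted with limma 3.58.1 (trend) in R 4.3.3 on log2(FPKM + 1), using the mice of the 2 ages compared and genes above 0 in at least 1 of them. Circular RNAs with a count in 5 or more of the 10 mice were fitted with edgeR 4.0.16 (quasi-likelihood, TMM) and, as an alternative, DESeq2 1.42.0. The edgeR fit lists no SE, so the absolute log2 difference divided by the square root of the F statistic was used. Adjusted p-values are Benjamini-Hochberg over all features fitted, with a threshold of 0.05. The fits were tried on simulated data with a log2 difference of 1.5 planted in 200 features at 24 against 3 months. For gene sums these were among the more expressed genes. Limma recovered 86% of them and edgeR 98%, with 13 false calls each. Smaller differences were not planted, so how many of those would be called is not known. FPKM has no count behind it here, so no counting interval is given and precision is the spread of the 5 mice.

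The genes, the list of other GABA genes, the marker lists and the tests were chosen with earlier results of these data known. Named were all 5 genes, every *Gabra3* transcript above 0, the 3 most abundant transcripts of each other gene, all their circular RNAs, the 3 genes most correlated with each, and, of the list, genes with a called gene or circular RNA, the 2 most abundant and the 1 with the smallest p at 24 against 3 months in each role. *Gabra2*, *Shisa7* and ENSMUST00000138987 were named after their values were seen. Some genes that this rule names are not reported here. Alternatives were a pseudocount of 0.1, a mean of at least 1 FPKM at either age, circular RNAs above 0 in at least 1 mouse, FPKM rescaled to TPM, all 15 mice in one fit, annotated transcripts only, an unadjusted p under 0.05 with an absolute log2 difference above 1 and each mouse left out. Exon positions and sequences came from the GENCODE annotation of GRCm38, in which 16 of 16 Ensembl transcripts of these genes had the same start, end and exon count. Figures used Python 3.11.15 and matplotlib 3.10.9.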

Additional observations from a re-analysis of the deposited data

Results flagged for a closer look

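Within each age, the highest and lowest mouse of the 4 gene sums, both main *Gabra3* transcripts and the 4 circular RNAs were compared with the rest by Dixon's gap ratio, in 30 groups of 5 mice. The limit of 0.71 was passed 5 times. In groups of normally spread values chance alone passes it in about 1 of 20. The 2 *Gabra3* transcripts were chosen for their division and often lie near 0, so that rate does not apply to them. *Aldh5a1* in 3-month replicate 5 was 7.93 FPKM, where the other 3-month mice were 2.63 to 3.87 FPKM. ENSMUST00000055966 of *Gabra3* was 4.71 FPKM in 12-month replicate 17, where the others were 0 to 0.769 FPKM, and MSTRG.39541.2 was 0.0766 FPKM in the same mouse, where the others were 2.72 to 3.14 FPKM. MSTRG.39541.2 was 2.60 FPKM in 24-month replicate 34, where the others were 0.00595 to 0.0334 FPKM. ENSMUST00000055966 was 0.0137 FPKM in 3-month replicate 9 and listed at 0 in the other 4 mice of that age, where any value above 0 passes the limit. The 2 *Gabra3* transcripts share reads, so their gaps in replicate 17 are 1 observation.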

How the results depend on the processing

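No paired analysis was possible because the ages share no replicate numbers. For the other GABA genes at 24 against 3 months, where limma called 0, a mean of at least 1 FPKM gave 2 (*Ubqln1* and *Shisa7*), TPM 1 (*Ubqln1*), and all 15 mice in one fit 2 (*Ubqln1* and *Shisa7*). Leaving out a mouse gave 0 to 1, with *Ubqln1* called without 3-month replicate 8 and *Tspo* without 24-month replicate 32. An unadjusted p under 0.05 with an absolute log2 difference above 1 gave 0 in each comparison. Counts at an unadjusted p under 0.05 were 12, 14 and 5 for 24 against 3, 12 against 3 and 24 against 12 months. The first was 6 with a mean of at least 1 FPKM, where fewer genes were tested, and leaving out a mouse gave 8 to 13, 9 to 13 and 3 to 8. The second fell to 9 without 12-month replicate 20 or 21, and the count for 24 against 12 months was 8 without 24-month replicate 32 and 3 without 33.

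Calls among circular RNAs of these genes were 14, 1 and 1. Leaving out a mouse gave 8 to 15, 0 to 3 and 0 to 5, and DESeq2 gave 4 and 2 at 12 against 3 and 24 against 12 months. The first was 8 without 3-month replicate 7 or 24-month replicate 31 or 33, and 9 without 24-month replicate 34. The count at 12 against 3 months was 0 without any 1 of 3-month replicates 5, 8 and 9. It was also 0 without any 1 of 12-month replicates 17, 19, 20 and 21, and 3 without 3-month replicate 6. The call of circRNA9791 itself held in 2 of 12 alternatives, DESeq2 among them, so a count above 0 can come from other circles. The call at 24 against 12 months was lost without any 1 of 12-month replicates 18, 19 and 20 or 24-month replicates 31, 33, 34 and 35, and there were 5 without 12-month replicate 21.

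With annotated transcripts only, the log2 difference of *Gabra3* was 1.95 for 24 minus 3 months and 1.15 for 24 minus 12 months. With a pseudocount of 0.1, *Gad1* differed by 0.24 for 12 minus 3 months and -0.25 for 24 minus 12 months. For ENSMUST00000055966 the pseudocount gave 4.84, 1.74 and 3.10 for 24 minus 3, 12 minus 3 and 24 minus 12 months, and TPM gave 3.75 for the first and 2.46 for the last. For MSTRG.39541.2 it gave -3.01 for 24 minus 3 and -2.90 for 24 minus 12 months, and TPM gave -2.25 and -2.20. *Gabra3* kept its sign for 24 minus 3 and 12 minus 3 months in all 13 alternatives, with 0.58 to 0.79 and 0.55 to 0.77 when a mouse was left out. For 12 minus 3 months, MSTRG.39541.2 changed sign in 3 of 12 alternatives. The cause of these shifts was not tested. Of the 4 genes, *Gad1* had the least aligned sequence in every mouse, and what that depth could show was not tested.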
